A study of Mus musculus with 3 samples.

Results

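Transcription factor genes of the dorsal midbrain, the tectum, which forms the superior and inferior colliculi, were described in RNA sequencing data from mouse midbrain. The 9 genes are Tfap2d, Tfap2b, Meis1, Meis2, Pou4f1, Pou4f2, Pou4f3, Pax7 and Lhx9, of 49585 genes in the deposited tables. They were taken by symbol, with the row to be chosen by the highest summed count where a symbol stood on several rows. Each of the 9 symbols stood on 1 row, so no measured value decided between rows. The list of genes itself was chosen with earlier results of these data known. All 9 genes passed the filter on low counts, which left 25561 genes for testing.

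The series compared a wild-type group (WT, 1 library) with a group whose genotype is labelled FGR (2 libraries), all of strain C57BL/6 at postnatal day 3. The labels do not spell out FGR, name no allele and do not say how many animals gave each library. The comparison asks how midbrain expression in FGR mice differed from that in WT mice. With 1 WT library the WT spread was not measured, and genotype cannot be told apart from the litter, dissection or preparation of that library.

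The tectum forms from the dorsal mesencephalon under the influence of the midbrain-hindbrain boundary, and its neurons receive visual, auditory and somatosensory input. The genes fall into families of DNA-binding proteins. Tfap2d and Tfap2b encode AP-2 factors, which bind GC-rich palindromes as dimers. Meis1 and Meis2 encode TALE homeodomain proteins, which bind DNA with PBX partners, and Pou4f1, Pou4f2 and Pou4f3 encode POU homeodomain proteins (Brn3a, Brn3b and Brn3c) of sensory and projection neurons. Pax7 encodes a paired-domain protein of the dorsal neural tube and Lhx9 a LIM homeodomain protein of the diencephalon and tectum.

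In FGR midbrain, 7 of the 9 genes rose and none was called lower. Meis1 and Tfap2d rose by over 2-fold, Pou4f2, Meis2, Lhx9 and Pou4f3 by 1.64-fold to 1.80-fold and Tfap2b by 1.30-fold, while Pou4f1 and Pax7 were not called. The call is an adjusted p under 0.05 in edgeR's quasi-likelihood test across all 25561 genes, in which 1.66% of genes were called higher and 2.59% lower. DESeq2 called 5 of the 9 higher, without Tfap2b and Pou4f3, and limma-voom called 6, without Pou4f3. In both of these, and at an unadjusted threshold of 0.05 in edgeR, 0 of the 9 were lower. On TMM-scaled CPM (counts scaled by library size), both FGR libraries lay above WT for 8 of the 9 genes, against 38.5% of all tested genes, and both lay below WT for 38.2% of tested genes. The eighth is Pou4f1, at 27.0 CPM in FGR replicate 2 against 26.9 CPM in WT, and on RPKM, per length and not TMM-scaled, the count was 7. The median log2 fold change of the 9 genes was 0.78 and that of all tested genes 0.0051. Because the 9 genes were chosen with earlier results known, these comparisons with all genes are a description and no test of the list. A gene's own spread came from the FGR pair alone (1 residual degree of freedom), and the test moderated it with the spread of all tested genes. The p-values thus rest largely on spread borrowed from other genes. Nothing in the labels says that the FGR pair came from separate animals, so its spread may be technical.

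Levels per length, in RPKM as deposited, show how the genes rank within a library. In WT, Tfap2b was highest at 14.8 RPKM, followed by Lhx9 at 11.3, Tfap2d at 7.14, Pou4f1 at 5.86, Meis2 at 5.73, Pou4f2 at 5.34, Pax7 at 4.01, Meis1 at 2.19 and Pou4f3 at 1.31 RPKM. In FGR, Lhx9 (18.9 ± 1.39 RPKM; SD, n = 2) and Tfap2b (18.7 ± 2.69) did not differ beyond their spread. The same held for Meis2 (9.76 ± 1.11 RPKM) and Pou4f2 (9.36 ± 0.557), and for Meis1 (4.76 ± 0.885 RPKM) and Pax7 (4.38 ± 0.801). Between these pairs, by the means, stood Tfap2d at 15.4 ± 1.38 and Pou4f1 at 6.23 ± 0.742 RPKM. The spread of Tfap2d overlapped that of Tfap2b, and the spread of Pou4f1 that of Meis1. In each FGR library Tfap2d was below Tfap2b and Pou4f1 above Meis1. Pou4f3 was lowest at 2.09 ± 0.0989 RPKM. Pou4f1 thus ranked above Meis2 and Pou4f2 in WT and below both in each FGR library, though no spread was measured for the small WT gaps.

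**Figure D1:**
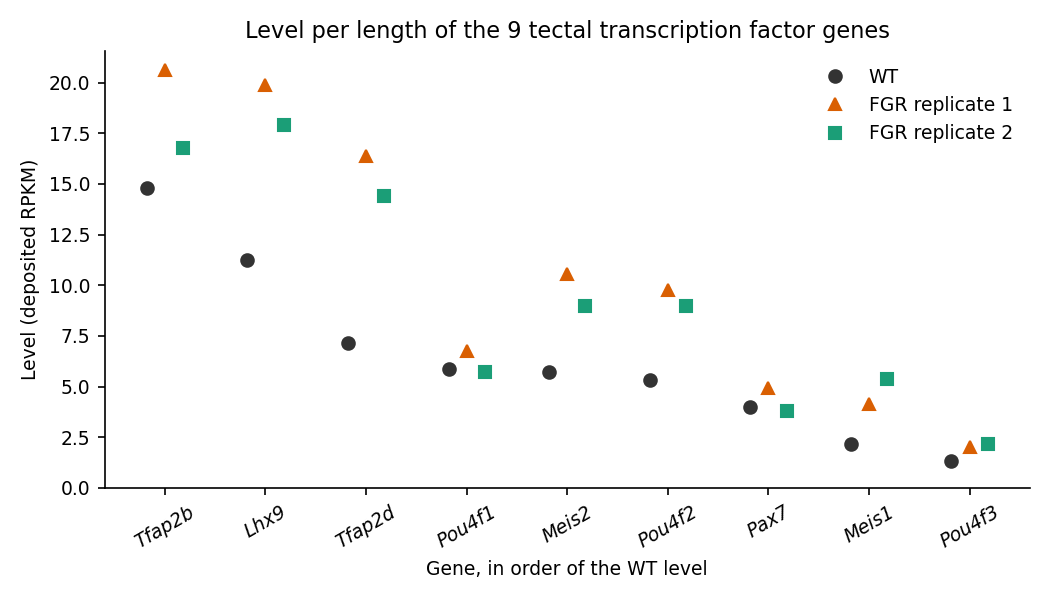
Level per length (deposited RPKM, linear axis from 0) of the 9 genes in the WT library (circles) and FGR replicates 1 (triangles) and 2 (squares), ordered by the WT level. The WT point is the lowest for 7 genes, and for Pou4f1 and Pax7 it lies between FGR replicate 2 (5.71 and 3.82 RPKM) and FGR replicate 1 (6.76 and 4.95 RPKM).

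The promoters of 3 genes are shown because the 9 genes belong to families whose DNA motifs can be looked for in them. RefSeq promoters (build GRCm38.p6, 250 bases before to 50 after a transcript start) were searched for 8 of the 9 genes, 10 windows in all. Pou4f3 was left out of the search. Lhx9, which rose, and Pou4f1, which was not called, each hold the MEIS motif TGACAG, in capitals, which starts 125 bases before the start site in Lhx9 and, on the other strand as CTGTCA, 108 bases before it in Pou4f1. The window printed for Tfap2d, whose level more than doubled, holds none of the motifs searched. The genome build behind the deposited counts is not given in the sources used here, and the coordinates are those of the RefSeq table.
Lhx9 promoter, chr1:138842395-138842694, minus strand: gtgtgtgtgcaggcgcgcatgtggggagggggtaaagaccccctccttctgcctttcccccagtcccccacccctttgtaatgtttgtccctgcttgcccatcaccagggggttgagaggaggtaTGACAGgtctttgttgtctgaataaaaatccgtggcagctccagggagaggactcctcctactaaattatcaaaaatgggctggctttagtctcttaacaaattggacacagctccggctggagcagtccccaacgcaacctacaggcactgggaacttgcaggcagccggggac
Pou4f1 promoter, chr14:104467950-104468249, minus strand: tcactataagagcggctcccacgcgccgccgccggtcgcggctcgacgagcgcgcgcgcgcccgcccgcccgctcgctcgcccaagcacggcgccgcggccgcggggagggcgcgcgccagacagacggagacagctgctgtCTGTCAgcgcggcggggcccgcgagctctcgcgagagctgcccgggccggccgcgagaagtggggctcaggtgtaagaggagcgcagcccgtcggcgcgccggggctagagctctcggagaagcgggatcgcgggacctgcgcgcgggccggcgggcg
Tfap2d promoter, chr1:19102772-19103071, plus strand: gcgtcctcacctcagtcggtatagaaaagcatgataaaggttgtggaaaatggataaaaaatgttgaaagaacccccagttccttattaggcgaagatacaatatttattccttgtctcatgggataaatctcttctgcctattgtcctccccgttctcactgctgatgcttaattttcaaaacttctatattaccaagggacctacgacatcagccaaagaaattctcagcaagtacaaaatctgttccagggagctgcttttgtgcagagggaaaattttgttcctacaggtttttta

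Over both strands, TGACAG stood in the promoters of 2 of the 8 genes, which have 10 windows, and in 19.2% of 32851 RefSeq promoters of this length. The AP-2 palindrome GCCNNNGGC stood in 0 of the 8 and in 16.6% of all promoters, and the homeodomain core TAATTA in 0 of the 8 and in 5.29% of all. The GC content differed widely, at 78.3% in the Pou4f1 window and 39.7% in the Tfap2d window shown. A match describes these letters in this window and is no evidence of binding.

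Of the AP-2 genes, Tfap2d, which the inferior colliculus needs to form (ENSMUSG00000042596.7), had 738 counts in the WT library against 1869 (FGR replicate 1) and 1302 (FGR replicate 2). After TMM scaling these were 13.7, 32.2 and 28.5 CPM. Both FGR libraries were above WT and within 1.13-fold of each other. On the log2 scale Tfap2d rose by 1.15 ± 0.12 (SE; edgeR adjusted p = 1.02e-04), 2.22-fold, and it was called under all 9 settings of the test (the main one and 8 alternatives).

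Tfap2b, an AP-2 gene also used in neural crest and kidney (ENSMUSG00000025927.13), stood at 92.2 CPM (WT), 131.6 CPM (FGR replicate 1) and 107.7 CPM (FGR replicate 2). Both FGR libraries were above WT, replicate 2 by 1.17-fold and replicate 1 by 1.43-fold. A log2 rise of 0.38 ± 0.10 (edgeR adjusted p = 0.0415) was called in 6 of 9 settings, with adjusted p from 5.18e-05 to 0.716. Without FGR replicate 1 it was 0.22 and without FGR replicate 2 it was 0.51.

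The AP-2 pair was also compared by its composition, a measure that needs no scaling between libraries. Tfap2d made up 12.9% of the summed counts of the pair in WT, with an exact Clopper-Pearson 95% interval of 12.1 to 13.8. Its share was 19.7% (18.9 to 20.5) for FGR replicate 1 and 20.9% (19.9 to 21.9) for FGR replicate 2. The intervals cover counting error only. WT lay below both FGR libraries, whose intervals overlapped each other. Per length, Tfap2d was 32.5% of the pair in WT against 44.3% and 46.2% in FGR. Gm15825, annotated as antisense to Tfap2d in GENCODE M21, had 95 counts in WT against 231 and 194 in FGR. Gm10075, a processed pseudogene on the strand opposite to Tfap2d, had 79 counts in WT against 122 and 63. No source states strand-aware counting, and reads of either gene and of Tfap2d cannot be told apart where they overlap.

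Among the TALE genes, Meis2, a tectal gene that works with Otx2 (ENSMUSG00000027210.20), stood at 67.8 CPM (WT), 128 CPM (FGR replicate 1) and 109.3 CPM (FGR replicate 2). Both FGR libraries were above WT, by 1.89-fold and 1.61-fold. Meis2 rose by 0.81 ± 0.09 on the log2 scale (edgeR adjusted p = 1.31e-04), called under all 9 settings.

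Meis1, which is also expressed in cerebellar granule cells and blood progenitors (ENSMUSG00000020160.18), stood at 22.6 CPM (WT), 43.9 CPM (FGR replicate 1) and 57.4 CPM (FGR replicate 2). Both FGR libraries were above WT, and here replicate 2 was the higher by 1.31-fold, whereas replicate 1 was the higher for 7 of the 9 genes. This gap between the FGR libraries was larger than that of 97.1% of the 13379 tested genes whose mean reached 5 CPM. Meis1 rose by 1.16 ± 0.13 on the log2 scale (edgeR adjusted p = 1.31e-04) and was called in 8 of 9 settings, with adjusted p from 1.85e-30 to 0.176. The log2 difference was 1.33 without FGR replicate 1 and 0.95 without FGR replicate 2.

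As a share of the Meis1 and Meis2 counts, Meis1 took 25.0% (95% interval 23.8 to 26.3) of the WT library, 25.5% (24.7 to 26.4) of FGR replicate 1 and 34.4% (33.4 to 35.5) of FGR replicate 2. WT and FGR replicate 1 thus overlapped and FGR replicate 2 stood apart. The 8 cerebellar markers summed to 91.8 CPM (WT), 81.4 CPM (FGR replicate 1) and 129.6 CPM (FGR replicate 2), and no marker was at 0 in any library. Neurod1, a granule cell factor, was at 3.12, 3.55 and 10.1 CPM in the same order, and Car8, a Purkinje cell gene, at 32.9, 23.5 and 51.4 CPM. Every marker except Cbln1 was highest in FGR replicate 2, though Barhl1 only narrowly and Gabra6 at just 3 counts there. Cbln1, made by granule cells, was at 36.6, 24.3 and 34.6 CPM, below WT in both FGR libraries. Barhl1 was at 15.1, 25.5 and 25.6 CPM and Cbln3 at 1.32, 1.95 and 2.45 CPM, above WT in both. Of the 7 markers tested, Barhl1 was the 1 called, higher in FGR, and it is also a tectal gene. Meis1 was 1.94 times its WT level in FGR replicate 1, where the summed marker level was below that of WT, and 2.54 times in FGR replicate 2, where it was above. The part of cerebellar tissue in the Meis1 level was not tested. All 5 genes annotated within the Meis1 locus had more counts in both FGR libraries than in WT. Of them, Gm37818 on the same strand had 85 counts in WT against 226 and 240 in FGR, and antisense Gm16140 had 35, 71 and 75. These counts are raw, and reads of these genes and of Meis1 cannot be told apart where they overlap. They are therefore no separate measure of the locus.

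**Figure D2:**
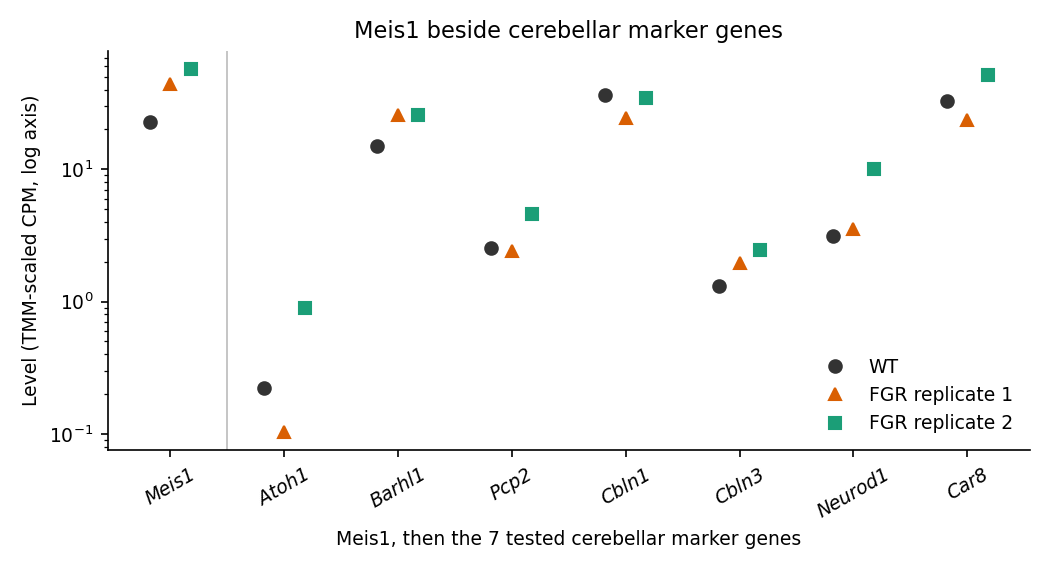
TMM-scaled CPM (log axis) of Meis1 and of the 7 tested cerebellar marker genes in the WT library and both FGR libraries. Meis1 lies above WT in both FGR libraries, while Atoh1, Pcp2, Neurod1 and Car8 are high in FGR replicate 2 and near or below WT in FGR replicate 1. Cbln1 lies below WT in both FGR libraries, and Barhl1 and Cbln3 lie above it.

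Of the POU genes, Pou4f2, best known from retinal ganglion cells and also made in the superior colliculus (ENSMUSG00000031688.4), stood at 16.8 CPM (WT), 31.5 CPM (FGR replicate 1) and 29.1 CPM (FGR replicate 2). Both FGR libraries were above WT, by 1.88-fold and 1.73-fold. Pou4f2 rose by 0.85 ± 0.11 on the log2 scale (edgeR adjusted p = 6.62e-04), called under all 9 settings.

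Pou4f3, needed for inner ear hair cells (ENSMUSG00000024497.3), had 164 counts in the WT library against 279 (FGR replicate 1) and 236 (FGR replicate 2), or 3.05, 4.81 and 5.16 CPM. The FGR libraries lay close together and above WT. Its log2 fold change of 0.71 ± 0.18 (edgeR adjusted p = 0.0443) was called in 6 of 9 settings, with adjusted p from 0.00832 to 0.437.

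Pou4f1, which marks the habenula, the red nucleus and sensory ganglia as well as the tectum (ENSMUSG00000048349.9), stood at 26.9 CPM (WT), 31.8 CPM (FGR replicate 1) and 27.0 CPM (FGR replicate 2). Only FGR replicate 1 was clearly above the WT level. The log2 difference of 0.13 ± 0.11 was not called (edgeR adjusted p = 0.604), nor was it in any of the 9 settings.

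Within the POU family, Pou4f1 gave 57.6% (95% interval 55.6 to 59.5) of the counts in WT, 46.7% (45.1 to 48.3) for FGR replicate 1 and 44.1% (42.2 to 45.9) for FGR replicate 2. Pou4f2 gave 35.9% (34.1 to 37.8), 46.2% (44.7 to 47.8) and 47.5% (45.6 to 49.3). The intervals of WT and FGR, which cover counting error only and no variation between libraries, did not overlap for either gene. Per length, Pou4f1 was 46.8% of the family in WT against 36.5% and 33.9% in FGR, and Pou4f2 was 42.6% against 52.6% and 53.2%. Pou4f3 stayed the smallest share, at 6.52%, 7.06% and 8.44%, with a WT interval (5.58 to 7.55) that overlapped both others.

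**Figure D3:**
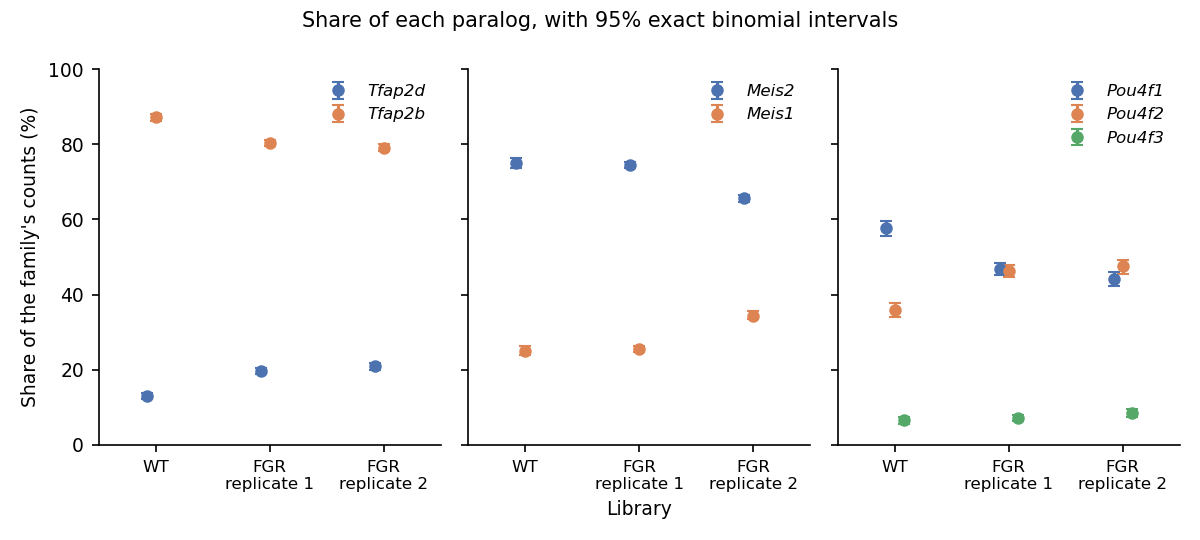
Share of each gene in the summed counts of its family (percent, axis from 0 to 100) in the WT library and FGR replicates 1 and 2. Exact 95% binomial intervals cover counting error only. Tfap2d and Pou4f2 take a larger share in both FGR libraries than in WT, and Meis1 takes a larger share in FGR replicate 2 alone.

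Other sites that express Pou4f1 and the other POU genes were checked by their markers. The 7 habenular markers summed to 88.4 CPM in WT against 76.5 and 70.5 CPM in FGR. Most of each sum was Nwd2, which fell from 67.0 CPM in WT to 55.4 and 49.0 CPM in FGR (log2 fold change -0.36 ± 0.08). The other 6 were not called. At an unadjusted threshold of 0.05 in edgeR, 4 of the 7 habenular markers were lower and 0 were higher. Among these 4 were Nwd2, Chrnb3 and Tac2, the last with only 19 counts in WT. The same 4 were below WT in both FGR libraries, against 38.2% of all tested genes. The other 3 were above WT in both, against 38.5% of all tested genes. The 8 sensory ganglion markers summed to 24.7 CPM in WT against 17.5 and 16.2 CPM in FGR. Without Isl1 the other 7 summed to 15.2 CPM in WT against 16.5 and 15.0 CPM. Isl1 was the 1 of 7 tested that was called, lower in FGR at 0.983 and 1.25 CPM against 9.49 CPM in WT, and it is also a hypothalamic gene. No marker of either list was at 0. The part of these sites in the POU gene levels was not tested.

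Pax7, which marks the dorsal mesencephalon and later superior collicular neurons and is also the satellite cell factor of muscle (ENSMUSG00000028736.13), stood at 23.0 CPM (WT), 29.2 CPM (FGR replicate 1) and 22.6 CPM (FGR replicate 2). WT lay between the FGR libraries. The log2 difference was 0.17 ± 0.14 (edgeR adjusted p = 0.564) and was not called in any of the 9 settings. The gap between its FGR libraries, 1.29-fold, was larger than that of 96.8% of the genes whose mean reached 5 CPM.

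Lhx9, the LIM homeodomain gene (ENSMUSG00000019230.14), stood at 105.1 CPM (WT), 189.9 CPM (FGR replicate 1) and 171.8 CPM (FGR replicate 2). Both FGR libraries were above WT, by 1.81-fold and 1.63-fold, and within 1.11-fold of each other. Lhx9 rose by 0.78 ± 0.08 on the log2 scale (edgeR adjusted p = 1.02e-04), called under all 9 settings. Lhx9 is also a thalamic and pineal gene. Of 5 thalamic markers, Gbx2 fell from 4.09 CPM in WT to 0.724 and 0.941 CPM in FGR, and Prox1 from 28.8 to 16.8 and 15.7 CPM. Rora rose from 89.3 to 118.8 and 119.6 CPM, and the other 2 were not called. The 5 summed to 210.3 CPM in WT against 226.9 and 221.9 CPM in FGR, with no marker at 0. Rora rose by more CPM than this sum did. The 6 pineal markers summed to 4.16 CPM in WT against 6.57 and 4.79 CPM in FGR, with Bsx at 0 in FGR replicate 1 and Crx and Asmt at 0 in FGR replicate 2. Most of each sum was Lhx4, at 2.62 CPM in WT against 5.88 and 4.16 CPM in FGR. Of the 3 tested, Lhx4 was called higher and Bsx lower, from 1.10 CPM in WT to 0 and 0.0438 CPM in FGR. The other 3 had at most 6 counts in any library. The part of these tissues in the Lhx9 level was not tested.

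As a group, the 9 genes summed to 371.2 CPM (WT), 623.0 CPM (FGR replicate 1) and 558.6 CPM (FGR replicate 2). The 8 pan-neuronal markers summed to 4829, 4748 and 4590 CPM, so both FGR libraries were slightly below WT there, with no marker at 0. Relative to the summed neuronal markers, a comparison added after the data had been seen, the log2 difference was 1.19 for Tfap2d, 1.20 for Meis1, 0.90 for Pou4f2, 0.85 for Meis2, 0.83 for Lhx9, 0.76 for Pou4f3 and 0.42 for Tfap2b. It was 0.21 for Pax7 and 0.17 for Pou4f1. In bulk tissue, more cells of a type and more RNA per cell cannot be told apart.

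Markers of neighbouring regions moved with the groups. The 14 hypothalamic markers summed to 51.4 CPM in WT against 17.5 and 17.6 CPM in FGR, with 9 called lower and Oxt, Six6 and Fezf1 at 0 in both FGR libraries and Rax at 0 in FGR replicate 1. The 12 hindbrain markers summed to 3.62 CPM in WT against 43.7 and 37.2 CPM in FGR, with 5 of 7 tested called higher. Hoxa3, Hoxb2, Hoxb4, Hoxb5 and Hoxd3 were at 0 in WT and Hoxb5 at 0 in FGR replicate 2. The 11 ventral midbrain markers summed to 97.0 CPM in WT against 53.4 and 60.0 CPM in FGR, with Slc6a3, Foxa1 and Lmx1a called lower, and the 11 meningeal markers to 917.1 CPM in WT against 362.7 and 587.9 CPM, with 9 called lower, and none of these at 0. Over all tested genes, 1.66% were called higher and 2.59% lower. The part of regional composition in the levels of the 9 genes was not tested.

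Of the 26 other genes of the tectum and dorsal midbrain reported here, 8 rose and 18 were not called, and 16 were higher in both FGR libraries. Over all tested genes, 1.66% were called higher and 38.5% were above WT in both FGR libraries. The 26 genes, too, were chosen with earlier results known. The median log2 fold change of the 26 was 0.26, and none was at 0 in any library, the midbrain-defining genes Otx2, En1, En2 and Pax5 included. En2, of the midbrain-hindbrain boundary, was at 20.9 CPM in WT against 40.1 and 37.4 CPM in FGR, a log2 rise of 0.89 ± 0.10 (edgeR adjusted p = 1.31e-04). Barhl1, a homeobox gene, rose from 15.1 CPM to 25.5 and 25.6 CPM. Ebf3, a neuronal differentiation factor, rose from 97.9 to 123.9 and 124.5 CPM. The other 5 that rose, named after their values were seen, were Ebf2, En1, Mab21l2, Nhlh2 and Otx2, by 1.33-fold to 1.56-fold. The ephrin genes Efna2 and Efna5, which guide retinal axons in the tectum, were not called, at log2 fold changes of 0.03 ± 0.15 and 0.02 ± 0.12.

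**Figure D4:**
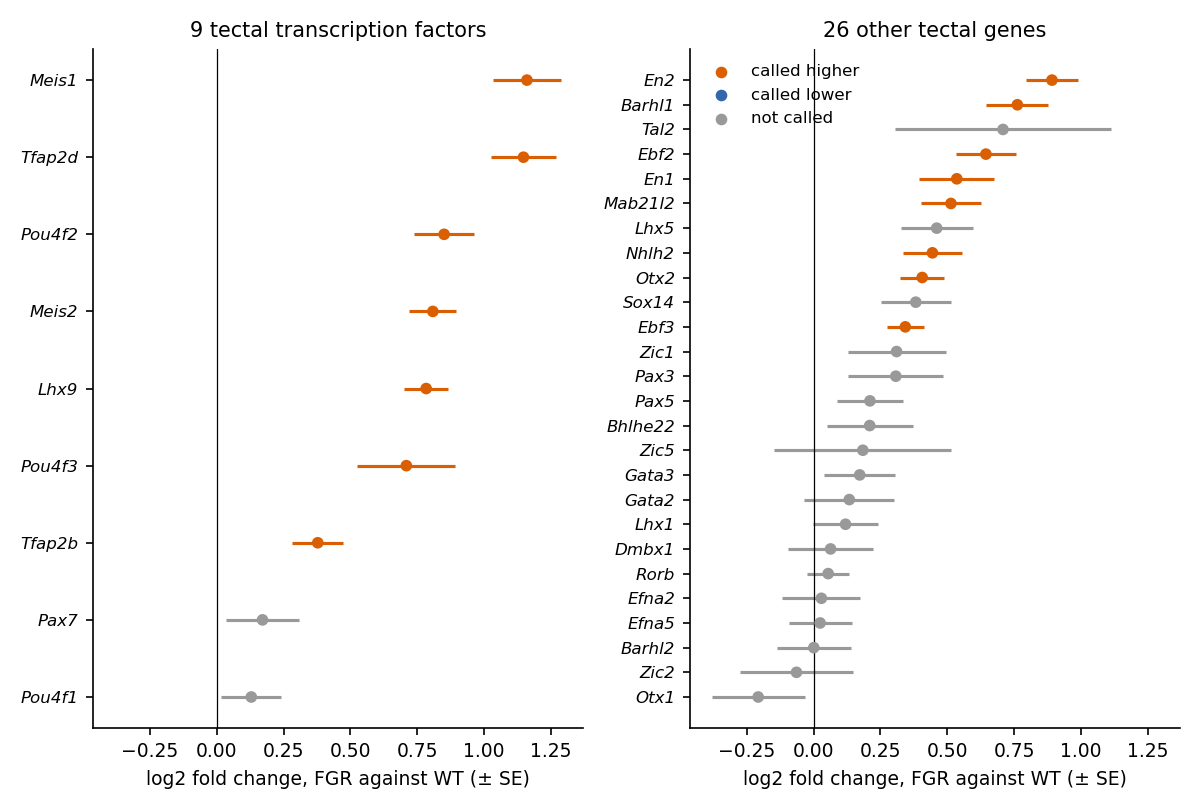
Log2 fold change of FGR against WT with its standard error for the 9 genes (left) and the 26 other tectal genes (right), coloured by call (adjusted p under 0.05). On the left 7 genes are called higher, and on the right 8 are called higher.

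The families' relatives and partners were read from the same fit. Of the 8 TALE partners reported here Pbx3 rose, from 75.6 CPM in WT to 104.4 and 99.2 CPM in FGR (log2 fold change 0.43 ± 0.07; edgeR adjusted p = 0.00294), and the other 7 were not called. Meis3 was at 29.7, 37.6 and 35.1 CPM (adjusted p = 0.0926). Meis3 was above WT in both FGR libraries, as were 7 of the 8, against 38.5% of all tested genes. The median log2 fold change of the list was 0.18.

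Of 8 POU relatives 3 rose, namely Pou3f2 (log2 fold change 0.47 ± 0.09), Pou3f3 (0.37 ± 0.07) and Pou6f1 (0.33 ± 0.06), and the others were not called. Over all tested genes, 1.66% were called higher and 2.59% lower. Pou3f2 and Pou3f3 encode further Brn factors, which act in neural progenitors and young neurons. Of 16 tested LIM relatives and cofactors, 3 fell and 3 rose. Isl1, Lhx6 and Lmx1a, genes of hypothalamic, forebrain and ventral midbrain neurons, were those that fell. Those that rose, named after their values were seen, were Lhx2, the closest paralog of Lhx9, at 14.2 CPM in WT against 24.2 and 19.2 CPM in FGR, Lhx4, and Ldb1, a cofactor that joins LIM proteins into complexes.

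The 7 tested AP-2 relatives and cofactors were not called in edgeR, with 1 lower at an unadjusted threshold of 0.05, and their median log2 fold change was -0.01. Kctd15, an inhibitor of AP-2 factors, was at 22.0 CPM in WT against 22.2 and 23.7 CPM in FGR. The 4 tested Pax relatives were not called either. Pax6, a gene of cerebellar granule cells too, was at 8.90 CPM (WT), 7.90 CPM (FGR replicate 1) and 18.4 CPM (FGR replicate 2), and Pax5 at 34.6, 45.6 and 34.4 CPM.

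Genes whose pattern over the 3 libraries was nearest to that of Tfap2d were ranked by the Euclidean distance of log2 CPM deviations, over the 11780 genes whose mean reached 5 CPM, without the 9 genes themselves, predicted genes (Gm and Rik names) and genes with a count of 0 in any library. The nearest were Slc6a5, the glycine transporter gene of glycinergic neurons (3.98, 8.52 and 8.31 CPM; distance 0.113), Ndst4, of heparan sulphate synthesis (0.134), and En2 (0.214). Of the other tectal factors Pou4f2 was next, at 0.245, then Meis2 at 0.281, Lhx9 at 0.297 and Meis1 at 0.400. Tfap2b lay farther at 0.637, with 209 genes nearer than it, and Pax7 (0.817) and Pou4f1 (0.835) had 2138 and 2593 genes nearer. With 3 libraries this distance is a description of few points.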

How the data were processed

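RNA from frozen midbrain was sequenced in 3 libraries, per the labels' protocols with Trizol extraction and the TruSeq sample kit. Per the submitters' processing notes HISAT2 was used; aligner version, genome build and counter were not given in the sources used here. The deposited tables hold raw read counts per gene and the authors' RPKM, which equalled count per length and total to within 5e-04 percent. Total counts were 52874311 (WT), 58444481 and 46240262 (FGR replicates 1 and 2), at which 3 counts correspond to 0.0517 to 0.0656 CPM.

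Counts were fitted in R 4.3.3 with edgeR 4.0.16 (filterByExpr with a minimum count of 10, TMM scaling, two-sided quasi-likelihood F test, Benjamini-Hochberg adjustment over 25561 genes, threshold 0.05), without a block. The standard error is the log2 difference over the square root of F. The fit assumes that WT varies like the FGR pair. CPM values are TMM-scaled, and genes are ranked by level on RPKM alone. Sums of CPM and shares of counts are not adjusted for length, so longer genes weigh more in them. Alternatives used DESeq2 1.42.0, limma 3.58.1, other scalings and filters, and removal of each FGR library. The 9 genes and all lists were chosen with earlier results of these data known. Genes named from lists were mainly the 3 with the lowest p-values and the gene with the highest mean CPM, which is not adjusted for length. Named outside this rule were genes said to be named later, genes at 0 in a library, other cerebellar markers such as Cbln1, and Efna2 and Efna5. From 2 of the lists 1 gene each is not reported here, nor counted in its list. Motif matches were exact.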

Additional observations from a re-analysis of the deposited data

How the results depend on the processing

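Over the main test and 8 alternatives with a test, no alternative turned the direction of any of the 9 genes, and between 5 and 7 were called higher. Tfap2d, Meis2, Pou4f2 and Lhx9 were called in all 9 settings. The Tfap2b call was lost under a stricter filter of 1 CPM (adjusted p = 0.111), in DESeq2 (0.716) and in a robust fit (0.186), that of Pou4f3 under the stricter filter (0.0960), in DESeq2 (0.437) and in limma-voom (0.0692), and that of Meis1 in the robust fit (0.176). The cause was not tested. Over all genes, 424 were called higher and 663 lower, against 695 and 1362 without a filter, 153 and 302 under the stricter filter, 124 and 233 in DESeq2, and 1027 lower with scaling by library totals. Higher calls were 39.0% of calls, and 24.4% with scaling by totals, which moved the median log2 fold change to -0.03. With 1 FGR library left out no test is possible: Pou4f1 and Pax7 were at -0.01 and -0.04 without FGR replicate 1 and at 0.24 and 0.34 without FGR replicate 2, and the other 7 genes stayed above 0. Restricting promoters to the 250 bases before the start changed no motif count. No paired analysis was possible because the groups share a single replicate number. Depth limits Pou4f3 most, at 164 to 279 counts.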
